A study of Mus musculus with 2 samples.

Results

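The genes described here are 8 transcription factors that hold or shape squamous cell identity: Trp63, Pitx1, Klf4, Klf5, Tfap2a, Tfap2c, Grhl3 and Sox2. They were taken by gene symbol, 8 of the 32285 genes in the count tables, and each symbol matched 1 row. The tumours are mouse skin squamous cell carcinomas raised on dorsal skin with DMBA, a chemical carcinogen, and were profiled as whole dissociated tumours by 10x Genomics single-cell RNA sequencing, which counts molecules as UMIs (unique molecular identifiers) from the 3' ends of transcripts.

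There are 2 libraries, 1 for each group. Ctrl-D came from Eed flox/flox mice given ethanol and DMBA, and Eed iKO-D from K14CrERT2;Eed flox/flox mice given hydroxyl-tamoxifen and DMBA. Both groups therefore carry the floxed Eed alleles and the DMBA treatment, and both are labelled 5 months old. Hydroxyl-tamoxifen, dissolved in ethanol, was put on the back skin for 4 days starting at postnatal day 50. DMBA was applied every week, for 20 weeks at most. Eed is a core subunit of the Polycomb repressive complex that places methyl groups on lysine 27 of histone H3. The keratin 14 promoter drives the Cre recombinase, so cells outside the epithelium should keep Eed. Cre and hydroxyl-tamoxifen differ together between the groups, and their parts cannot be told apart. The number and sex of the mice behind each library are not given in the sources used here. The libraries are called by their labels throughout.

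In textbook accounts of stratified epithelium, p63 (the product of Trp63) maintains basal keratinocytes and opens enhancers that AP-2 factors (Tfap2a, Tfap2c), KLF factors and Grainyhead-like factors then share. Klf4 and Grhl3 drive the late steps that build the skin barrier, while Klf5 belongs to the proliferating basal layer and Tfap2a and Tfap2c act from the surface ectoderm onward. Pitx1, a homeobox factor of the hindlimb and oral ectoderm, and Sox2, a stem cell factor that normal interfollicular epidermis lacks, are known for their roles in tumour-propagating cells of skin squamous carcinoma. Genes of this kind that are silent in adult skin are common Polycomb targets, and such targets usually have promoters rich in CpG dinucleotides.

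The 8 genes are spread over 6 chromosomes of mm10 (gene models of GENCODE vM21, whole-gene spans). Trp63 (ENSMUSG00000022510) lies at chr16:25683763-25892102 on the plus strand, Klf5 (ENSMUSG00000005148) at chr14:99298691-99315036 on the plus strand, and Tfap2c (ENSMUSG00000028640) at chr2:172549593-172558622 on the plus strand. Klf4 (ENSMUSG00000003032) at chr4:55527143-55532466 and Grhl3 (ENSMUSG00000037188) at chr4:135541888-135573630 are both on the minus strand of chromosome 4. Pitx1 (ENSMUSG00000021506) at chr13:55825051-55836192 and Tfap2a (ENSMUSG00000021359) at chr13:40715302-40738376 are both on the minus strand of chromosome 13. Sox2 (ENSMUSG00000074637) lies at chr3:34650405-34652461 on the plus strand.

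The promoters of 3 genes show how much the set differs in this respect. They are the 250 bases before a RefSeq transcript start (GRCm38.p6, the same assembly as mm10), read 5′ to 3′ on the strand of the gene, with CpG dinucleotides in capitals. Klf4 is shown as the gene with the most CpG among those in the RefSeq table, Grhl3 as a promoter with few, and Sox2 as the gene almost without epithelial transcripts in these libraries.
Klf4, chr4:55532476-55532725, minus strand: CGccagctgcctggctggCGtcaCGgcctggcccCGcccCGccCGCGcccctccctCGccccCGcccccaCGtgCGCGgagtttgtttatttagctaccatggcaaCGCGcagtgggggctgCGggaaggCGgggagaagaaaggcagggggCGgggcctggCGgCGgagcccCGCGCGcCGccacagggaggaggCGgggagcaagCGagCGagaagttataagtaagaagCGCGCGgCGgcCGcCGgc
Grhl3, chr4:135573633-135573882, minus strand: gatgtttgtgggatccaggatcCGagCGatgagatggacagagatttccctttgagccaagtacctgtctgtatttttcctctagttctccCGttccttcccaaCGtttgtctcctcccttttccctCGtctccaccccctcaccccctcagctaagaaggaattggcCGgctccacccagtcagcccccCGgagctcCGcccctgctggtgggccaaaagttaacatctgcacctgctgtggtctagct
Sox2, chr3:34649745-34649994, plus strand: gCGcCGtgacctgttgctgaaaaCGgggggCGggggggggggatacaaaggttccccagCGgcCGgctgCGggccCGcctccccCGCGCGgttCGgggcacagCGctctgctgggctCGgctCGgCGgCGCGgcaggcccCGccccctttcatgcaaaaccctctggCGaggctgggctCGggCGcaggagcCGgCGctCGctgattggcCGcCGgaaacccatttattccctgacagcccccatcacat

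The Klf4 stretch held 32 CpG dinucleotides, a number reached by 4.58% of the 32851 promoters in the RefSeq table, whose median was 6. The Sox2 stretch held 27, reached by 8.56%, although Sox2 was the only gene of the 8 with almost no UMIs in the epithelium. Grhl3 had 8 CpG dinucleotides, reached by 43.0% of promoters, and Tfap2a had 10 at each of its 2 listed starts. Letters that the set's own factors are known to bind were searched on both strands, and matches of different motifs may overlap. CACCC, read by KLF factors, occurred 3 times in the Grhl3 stretch and in 52.0% of all promoters. GCCNNNGGC, the AP-2 palindrome, occurred 1 time in the Klf4 stretch and in 13.7% of promoters. No match of AACCNGTT (Grainyhead-like, 1.79% of promoters), TAATCC (PITX, 6.25%) or ACAATG (SOX, 10.7%) was found in these 3 stretches. A match is a description of letters and not a measured binding site. The table held 4 of the 8 genes, and Trp63, Pitx1, Klf5 and Tfap2c are not among them.

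The Ctrl-D library held 8039 barcodes and 120500892 UMIs, and Eed iKO-D 22259 barcodes and 289511009 UMIs. After filtering, 7393 and 21484 cells were left, with medians of 13037 and 3191 UMIs per cell. Clustering of both libraries together, without the 8 genes among its variable genes, gave 7 epithelial-like clusters. In 6 of them Krt5 lay between 3119 and 6559 CPM and Krt14 between 5824 and 19265 CPM. The seventh, of loricrin-rich cells, had Krt14 at 4554 CPM but Krt5 at 509 CPM, below the 794 CPM of T cell-like cells. The 7 clusters held 5428 Ctrl-D cells (median 15642 UMIs) and 3111 Eed iKO-D cells (median 37472). The labels call the samples epidermal cancer cells, but fibroblast-like, immune, endothelial-like and other clusters were large. A further 12660 Eed iKO-D cells (58.9%, median 2371 UMIs) lay in unnamed clusters, against 112 (1.51%) in Ctrl-D. The largest, of 9212 Eed iKO-D cells, had 11 of 14 epithelial markers raised and Krt14 at 10215 CPM. It stayed unnamed because 42.0% of its UMIs came from Gm42418. The epithelial-like levels and counts below leave the unnamed cells out unless said otherwise. The libraries shared 49 barcodes, 40 of them among the kept cells. Eed itself stood at 53.0 CPM in Ctrl-D epithelial-like cells and 47.5 CPM in Eed iKO-D (ratio 0.896, 95% interval 0.864 to 0.929). The sources used here do not say which exons are removed, and 3' UMIs outside them do not check the labels.

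Levels below are in CPM: the UMIs of a gene, summed over the cells of a cluster in a library, per 1000000 UMIs of all genes in those cells. Ranges in parentheses are 95% intervals that cover counting error only, because with 1 library per group there is no replicate check, no p-value and no way to tell the groups from these particular tumours. A gene was taken as measured in a comparison with at least 20 UMIs over both libraries, and a difference of at least 1.5-fold is called higher or lower. Fewer RNA molecules per cell and fewer cells with the transcript cannot be told apart in a summed level.

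Epithelial transcripts were also found in T cell-like and neutrophil-like cells, which should lack them. Free RNA was not measured directly. Each level outside the epithelial-like clusters was therefore set beside the level that the cells' own Krt14 would bring along at the epithelial ratio. For Trp63 the T cell-like cells stood at 39.9 CPM in Ctrl-D, 1.13 times that level, and at 63.7 CPM in Eed iKO-D, 0.881 times it. The part of free RNA or doublets in these levels was not tested.

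**Figure D1:**
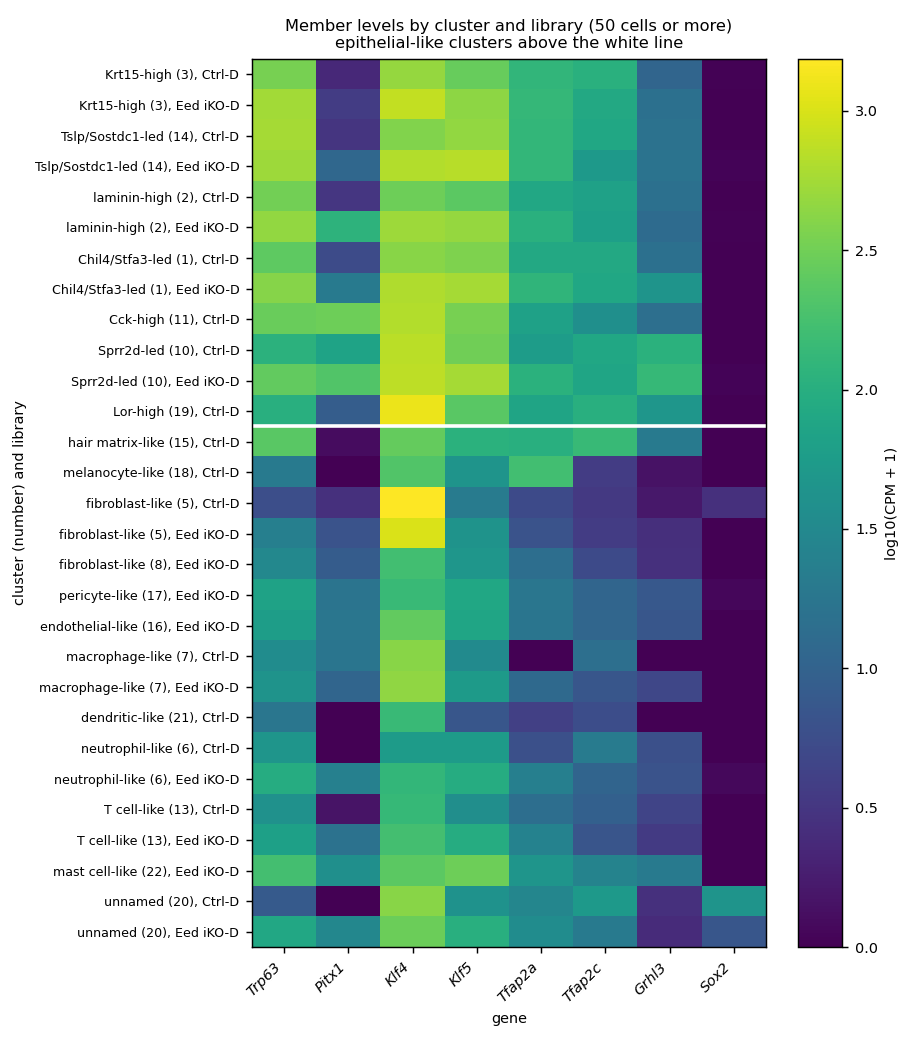
Level of each gene (log10 of CPM + 1, colour) in each cluster and library with at least 50 cells, epithelial-like clusters above the white line. Trp63 and Klf5 are high across the epithelial-like rows, Klf4 is also high in a fibroblast-like cluster, and Sox2 stands out only in cluster 20.

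Across all epithelial-like cells, 4 of the 7 measured genes were at least 1.5-fold higher in Eed iKO-D and none was lower. Of all 19563 genes measured there, 38.5% were higher by that rule and 16.9% lower, so 4 of 7 is not far from what the library as a whole did. The median log2 ratio was 0.63 over the 7 genes and 0.33 over all genes. Pitx1 was highest in ratio, Grhl3 next, and Trp63 and Klf5 sat just past the threshold. Klf4, Tfap2a and Tfap2c stayed under it. When epithelial cells were instead chosen cell by cell from their own marker UMIs, which took in 15934 Eed iKO-D cells, 2 genes (Pitx1 and Grhl3) were higher and 1 (Tfap2c, at 0.656) was lower.

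Pitx1 stood at 37.3 CPM in Ctrl-D against 116 CPM in Eed iKO-D, a ratio of 3.11 (3.0 to 3.22). Grhl3, the Grainyhead-like factor of barrier formation, stood at 16.9 and 34.4 CPM, a ratio of 2.04 (1.93 to 2.16). Klf5 stood at 333 and 517 CPM, a ratio of 1.55 (1.53 to 1.57). The Trp63 ratio of 1.60 and that of Klf5 lie so near the threshold that a change of scale moves them across it. With mitochondrial, ribosomal protein and Gm42418 UMIs left out of the total, they became 1.49 and 1.44, and when each ratio was divided by the median ratio of all genes they became 1.27 and 1.23. Klf4 stood at 494 and 579.6 CPM (1.17, 1.16 to 1.19), and Tfap2a at 90.4 and 107 CPM (1.19, 1.15 to 1.22). Divided by the median ratio of all genes, these came to 0.931 and 0.941, on the other side of equality. Tfap2c was the only gene with a level lower in Eed iKO-D, at 83.5 against 64.2 CPM (0.769, 0.746 to 0.792). Sox2 had 1 UMI in Ctrl-D against 7 in Eed iKO-D epithelial-like cells and was not measured.

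The share of cells with a transcript was read after each cell had been thinned to 2000 UMIs, which left 5271 and 3084 epithelial-like cells. Pitx1 was then seen in 5.84% of Ctrl-D and 17.1% of Eed iKO-D cells, and in 13.7% and 55.6% before thinning. Grhl3 was seen in 2.98% and 6.36% (unthinned 15.5% and 32.5%), and Trp63 in 38.8% and 50.4% (unthinned 86.5% and 93.2%). Klf5 was seen in 42.8% and 58.3% (unthinned 85.1% and 94.4%), and Klf4 in 49.1% and 57.1% (unthinned 84.7% and 93.5%). Tfap2c went the other way, with 14.9% and 11.9% after thinning. Its unthinned shares of 59.4% and 69.7% run against its CPM, in libraries of unequal depth. In Eed iKO-D T cell-like cells, the same thinning found Trp63 in 12.0%, Klf5 in 14.0% and Pitx1 in 5.33%, as the share in a cell type that should lack these genes. In Ctrl-D T cell-like cells Trp63 was found in 1.86% and Klf5 in 3.45%, both lower than in Eed iKO-D, and Pitx1 had 1 UMI in the 477 cells.

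**Figure D2:**
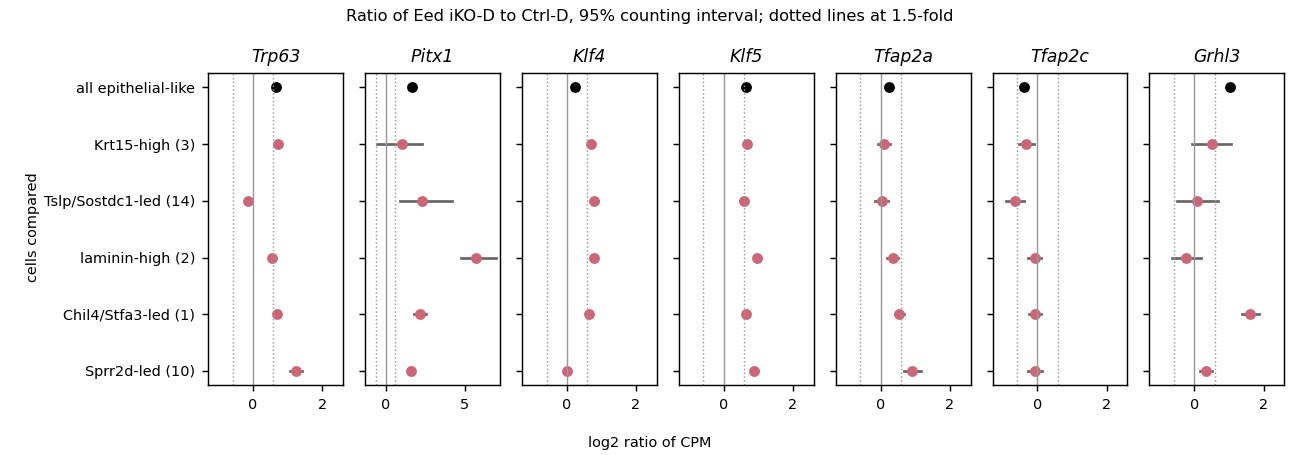
Ratio of Eed iKO-D to Ctrl-D for each gene (log2 of the CPM ratio, with 95% counting interval), over all epithelial-like cells and within each cluster compared, with dotted lines at 1.5-fold. Klf5 and Pitx1 points lie at or right of the upper line in the 5 shared epithelial-like clusters, and Tfap2c points there lie left of 0.

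The libraries differ in which epithelial states they hold, so the class ratio mixes levels with cell numbers. A cluster led by Chil4 and Stfa3 (cluster 1) had 2525 Ctrl-D and 136 Eed iKO-D cells, and the Krt15-high cluster 1650 and 116. The laminin-high cluster, named for genes such as Lama3, had 135 and 1890 cells, and a cluster led by Sprr2d that also had the highest Arg1 had 101 and 586. A cluster led by Tslp and Sostdc1 (cluster 14) had 167 and 372. The Cck-high cluster was of 1 library, with 643 Ctrl-D cells and 0 of the 3111 from Eed iKO-D (a share of up to 0.0964%), and the Lor-high cluster, of loricrin-rich cornifying cells, had 207 and 11. The 5 clusters with at least 50 cells from each library allow 35 comparisons of a gene within a cluster, and a cluster can still mix finer states.

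In 19 of these 35 the gene was at least 1.5-fold higher in Eed iKO-D, in 1 it was lower, and in 15 it was under the threshold. The measured genes that were higher numbered 5 of 7 in cluster 1 (background 30.4% of genes), 3 in the laminin-high cluster (43.1%), 4 in the Krt15-high cluster (32.3%), 4 in the Sprr2d-led cluster (57.6%) and 3 in cluster 14 (13.7%). The single lower value was Tfap2c in cluster 14, where 14.0% of genes were lower. The share of genes lower was 14.8% in cluster 1, 14.2% in the laminin-high, 17.3% in the Krt15-high and 8.78% in the Sprr2d-led cluster, in which no member was. Klf5 and Pitx1 were higher in each of the 5 clusters. Among the 11964 genes measured in all 5 clusters, 3.46% were higher in each. In Eed iKO-D the Pitx1 levels of cluster 1, cluster 14 and the Krt15-high cluster did not exceed the 23.1 CPM of neutrophil-like cells. Divided by each cluster's median ratio, 8 of the 35 stayed higher and 4 were lower.

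**Figure D3:**
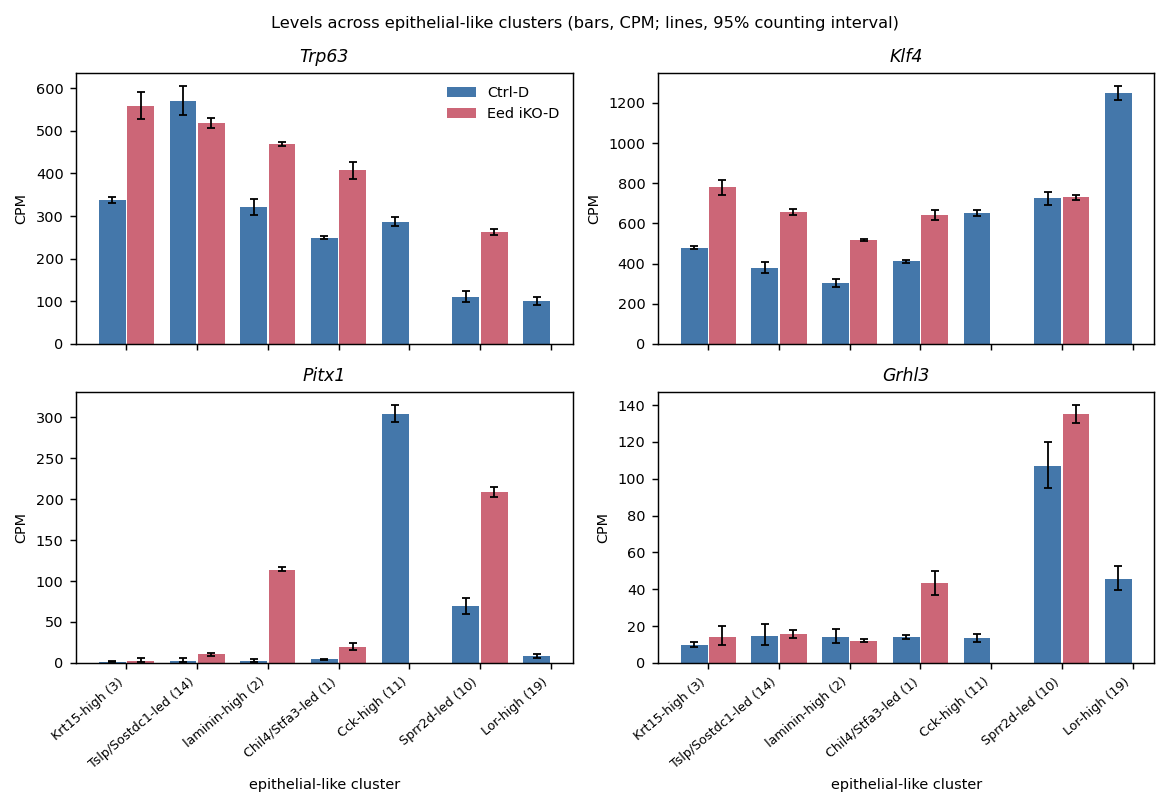
Level of Trp63, Klf4, Pitx1 and Grhl3 (CPM, bars on a linear axis from 0, lines for the 95% counting interval) in each epithelial-like cluster with at least 50 cells, blue for Ctrl-D and red for Eed iKO-D. Pitx1 bars are tall in the Cck-high, Sprr2d-led and, in Eed iKO-D, laminin-high clusters, Grhl3 bars in the Sprr2d-led cluster, and the Klf4 bar of the Lor-high cluster reaches 1250 CPM.

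Trp63 encodes the factor that defines the basal layer, but layers were not measured here. Its order across clusters was not that of the basal keratin Krt5, which was highest in cluster 1 (6559 CPM) and lower in the Krt15-high cluster (3730 CPM). Trp63 was highest in cluster 14, at 570.4 CPM in Ctrl-D (537 to 605) and 519 in Eed iKO-D (507 to 531), and in the Krt15-high cluster of Eed iKO-D, at 559 CPM (528 to 590.4). The interval of the Krt15-high level overlaps both others. The laminin-high cluster followed at 321 and 469.7 CPM, the Cck-high cluster at 287 in Ctrl-D, cluster 1 at 249 and 408, and the Ctrl-D Krt15-high cells at 338. The lowest epithelial levels were in the Sprr2d-led cluster of Ctrl-D, at 110.2 CPM, and in the Lor-high cluster of that library, at 99.9 CPM, whose intervals overlap. The Sprr2d-led cluster had a Trp63 ratio of 2.38 (2.12 to 2.68), 110.2 against 263 CPM. Relative to the median of all genes in the cluster, its log2 ratio was 0.47, under the threshold and close to the 0.48 of cluster 1 and of the Krt15-high cluster. Cluster 14 went slightly the other way, at 0.910 (0.853 to 0.971), and the laminin-high ratio of 1.46 (1.38 to 1.55) stayed under the threshold. Trp63 overlaps Gm27005, a gene model on the same strand, and how reads that fit both models were counted was not checked.

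Pitx1 was high in few states. The Sprr2d-led cluster was such a state in both libraries, the Cck-high cluster had no Eed iKO-D cells to compare, and the laminin-high cluster was high only in Eed iKO-D. In Ctrl-D the Cck-high cluster stood at 304 CPM (294 to 315), and 44.1% of its thinned cells had a UMI, while the Sprr2d-led cluster stood at 69.1 CPM. The other Ctrl-D epithelial-like clusters lay between 1.31 and 7.82 CPM. In Eed iKO-D the Sprr2d-led cluster stood at 209 CPM (203 to 215) and the laminin-high cluster at 114 CPM (112 to 117). Together these 2 clusters held 67.8% (laminin-high) and 30.7% (Sprr2d-led) of the Pitx1 UMIs of Eed iKO-D epithelial-like cells. The laminin-high ratio of 52.6 (26.7 to 122) was the largest of all within-cluster ratios of the 8 genes. It rests on 8 UMIs in 135 Ctrl-D cells against 10807 UMIs in 1890 Eed iKO-D cells. A finer clustering put 1420 cells of this cluster in a laminin-high fine cluster, 1383 of them Eed iKO-D, with Pitx1 at 95.2 CPM. Most of the 135 Ctrl-D cells fell elsewhere, so the cells compared are not known to share a state. The Sprr2d-led ratio was 3.03 (2.62 to 3.52).

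In the other 3 shared clusters Pitx1 was low. Cluster 1 of Ctrl-D stood at 4.37 CPM (3.82 to 4.99), against 0.493 CPM (up to 2.75) in T cell-like cells of that library. Eed iKO-D levels there were 19.8 CPM in cluster 1, 10.5 in cluster 14 and 2.65 in the Krt15-high cluster. The share of thinned cells with a UMI was 6.02% (2.63 to 11.5) in cluster 1, 1.62% in cluster 14 and 1.74% in the Krt15-high cluster, against 5.33% in T cell-like cells and 4.62% in neutrophil-like cells of that library. By this comparison the shares in cluster 14 and the Krt15-high cluster were not above those of cells that should lack Pitx1. The interval of cluster 1 includes both of those shares. Its 19.8 CPM lies between the 15.1 CPM of T cell-like and the 23.1 CPM of neutrophil-like cells of Eed iKO-D. The ratios were 4.53 (3.48 to 5.86), 4.97 (1.90 to 18.5) and 2.02, and the part of free RNA in them was not tested. In cluster 14 of Eed iKO-D, cells with Xist UMIs only held 57 Pitx1 UMIs in 69 cells (26.1 CPM), and cells with Y-linked UMIs only held 9 in 75 cells (2.73 CPM). The Krt15-high ratio rests on 6 Eed iKO-D UMIs, and its interval (0.692 to 4.88) includes equality. The laminin-high cells, with 19% of thinned cells, and the Sprr2d-led cells, with 26.3%, stood well above the T cell-like share. The class ratio of 3.11 in turn depended on the Cck-high cells: without that cluster it was 20.9, and with the 5 shared clusters weighted equally 5.92. Pitx1 overlaps Gm28760 on the same strand, and the effect of this overlap on its counts was not checked.

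At a finer clustering the Arg1-high cells separated from the Sprr-led cells. The Arg1-high fine cluster held 350 Eed iKO-D cells, with Arg1 (arginase 1) at 1319 CPM, and 256 of its cells had been in the laminin-high cluster. Pitx1 stood at 263 CPM there (254 to 272), Trp63 at 461, Klf5 at 431, Klf4 at 373 and Grhl3 at 12.4 CPM. The Sprr-led fine cluster of Eed iKO-D, 493 cells, had Pitx1 at 218 CPM and Grhl3 at 145 CPM. High Pitx1 therefore occurred both with higher Trp63 (461 CPM) and low Grhl3, and with lower Trp63 (270.5 CPM) and high Grhl3.

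Klf5 was higher in Eed iKO-D in each shared cluster. Its ratios were 1.55 (1.48 to 1.61) in cluster 1, 1.96 (1.84 to 2.10) in the laminin-high cluster, 1.60 (1.49 to 1.70) in the Krt15-high cluster, 1.85 (1.73 to 1.98) in the Sprr2d-led cluster and 1.5 (1.40 to 1.61) in cluster 14. The last sits on the threshold. Relative to the median of all genes in each cluster, the log2 ratios were 0.40, 0.55, 0.43, 0.11 and 0.63 in the same order, and cluster 14 alone stayed past 1.5-fold. Within a library Klf5 varied less across the epithelium than Pitx1 or Grhl3, from 232 CPM in the Lor-high to 466 CPM in cluster 14 of Ctrl-D, and from 442 in the Krt15-high to 700.3 in cluster 14 among the shared clusters of Eed iKO-D. In T cell-like cells Klf5 stood at 36.0 CPM in Ctrl-D against 92.2 CPM in Eed iKO-D.

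Klf4, which turns on late differentiation genes in suprabasal cells, showed a class ratio near 1 over states that were not. In cluster 1 it stood at 410.2 CPM in Ctrl-D against 643 in Eed iKO-D (1.57, 1.5 to 1.63). In the laminin-high cluster it stood at 302 and 519 CPM (1.72, 1.62 to 1.82), in the Krt15-high cluster at 479 and 779 (1.62, 1.54 to 1.71), and in cluster 14 at 377 and 658 (1.74, 1.61 to 1.88). Only the Sprr2d-led cluster was level, at 724 and 729 CPM (1.01, 0.962 to 1.06). The Krt15-high cluster takes in 308 cells that the finer clustering placed with Lor-high cells. In the Krt15-high fine cluster Klf4 stood at 447 CPM in Ctrl-D and 724 CPM in Eed iKO-D. The Ctrl-D library also held the Lor-high cells, at 1250 CPM (1217 to 1284), and the Cck-high cells, at 653 CPM. These 2 clusters supplied 11% and 14% of its epithelial Klf4 UMIs and are scarce or missing in Eed iKO-D. With the shared clusters weighted equally the Klf4 ratio was 1.5.

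Klf4 is also an immediate-early gene that tissue dissociation can raise, and other genes of that kind, chosen after their values were seen, moved with it in the laminin-high cluster. There Fos went from 757 to 1552 CPM (2.05), Jun from 629.8 to 1281 (2.03) and Atf3 from 226 to 775 (3.43). In cluster 1, where the Klf4 ratio was 1.57, Fos was at 1.18, Jun at 1.24 and Atf3 at 0.961. In the Krt15-high cluster (Klf4 at 1.62) Fos was at 1.35, Jun at 1.36, Atf3 at 1.33 and Egr1 at 1.14. Cluster 14 (Klf4 at 1.74) had Fos at 1.46, Jun at 1.15, Atf3 at 1.33 and Egr1 at 1.14. In the Sprr2d-led cluster Klf4 was level (1.01), with Fos at 1.36, Jun at 1.08, Atf3 at 2.06 and Egr1 at 0.783. The part of dissociation in the Klf4 levels was not tested.

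Tfap2a and Tfap2c are the AP-2 factors of surface ectoderm, and each stayed under the 1.5-fold threshold in 4 of the 5 shared clusters. Tfap2a lay between 1.02 and 1.46 in 4 shared clusters and reached 1.88 (1.60 to 2.23) in the Sprr2d-led cluster, from 56.7 to 107 CPM. Its highest epithelial levels were in the Krt15-high cluster, 123 and 131 CPM, and in cluster 14, 126 and 128 CPM, and these 4 intervals overlap. Tfap2c was below 1 in each of the 5 shared clusters, from 0.637 (0.532 to 0.766) in cluster 14 to 0.952 (0.848 to 1.07) in cluster 1. The intervals of cluster 1, the laminin-high cluster and the Sprr2d-led cluster include 1, so only the Krt15-high (105 to 83.5 CPM) and cluster 14 (78.9 to 50.2 CPM) levels were lower beyond counting error. Its highest epithelial levels were in the Krt15-high cells and the Lor-high cells (101 CPM) of Ctrl-D, and its lowest in the Cck-high cells, 37.6 CPM.

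Grhl3 was highest in the Sprr2d-led cells, in which small proline-rich proteins of the cornified envelope lead. It stood there at 107 CPM (95 to 119.9) in Ctrl-D and 135 CPM (130.4 to 139.9) in Eed iKO-D, a ratio of 1.26 (1.12 to 1.43). The next levels were 45.6 CPM in the Lor-high cells of Ctrl-D and 43.1 CPM in cluster 1 of Eed iKO-D, with overlapping intervals. The other epithelial-like clusters with at least 50 cells lay between 9.86 and 15.5 CPM. The laminin-high cells were at 14.1 and 12.0 CPM (0.846, 0.641 to 1.14). The only shared cluster past the threshold was cluster 1, at 14 against 43.1 CPM (3.07, 2.59 to 3.62). The Sprr2d-led cluster made up 1.86% of Ctrl-D and 18.8% of Eed iKO-D epithelial-like cells and held 17.4% and 66.8% of their Grhl3 UMIs. With the shared clusters weighted equally the class ratio of 2.04 became 1.38. In a finer cluster led by Krt1 and Krt10, of 715 Ctrl-D and 90 Eed iKO-D cells, Grhl3 stood at 25.4 and 74.1 CPM. Grhl3 did not follow Sprr2d itself across fine clusters. In Eed iKO-D the Arg1-high and Sprr-led fine clusters had Sprr2d at 329 and 332 CPM, but Grhl3 at 12.4 and 145 CPM. The Ctrl-D cells of the Sprr-led fine cluster had Sprr2d at 2437 CPM and Grhl3 at 108 CPM.

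Cells with 1 of these transcripts were compared with cells without it inside a cluster, after thinning. In the laminin-high cells of Eed iKO-D a Klf5 UMI was found in 61.0% (57.9 to 64.0) of the 1017 cells with Klf4 and in 49.7% (46.3 to 53.1) of the 859 without. Trp63 and Tfap2c went the other way in that cluster, with Trp63 in 45.9% of cells with Tfap2c and 55.8% of those without. Cells of 1 library are not replicates, and these shares describe these cells.

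Sox2 was nearly absent from the epithelium. All barcodes together held 49 Sox2 UMIs, 45 of them in kept cells, and 8 of these lay in 8 of the 8539 epithelial-like cells. The largest part, 29 UMIs, fell in 22 of the 158 cells of cluster 20, an unnamed cluster led by Apod and Igfbp5. The Ctrl-D cells of that cluster had 25 Sox2 UMIs (43.4 CPM) and the Eed iKO-D cells 4 (6.02 CPM), a ratio of 0.139 (0.0351 to 0.402), with 26.2% of genes lower there. In the same cluster 27.1% of genes were higher, Trp63 and Klf5 among them. Rspo3, a secreted Wnt signal booster, was detected in 15 of the 22 cells with Sox2 and 33 of the other 136, and Corin, a protease known from the hair follicle dermal papilla, in 11 and 36. Sox10, a glial and melanocyte factor, was found in 4 of the 22 and 8 of the other 136. Igfbp5, a leading gene of the cluster, was found in 1 of the 22 and 42 of the other 136. Tfap2c was high in cluster 20 of Ctrl-D, at 50.3 CPM or 32.7 times the level at the Krt14 ratio, and stood at 19.6 CPM in Eed iKO-D. Sox2 lies inside Sox2ot, a long noncoding gene on the same strand that had 16 and 5 UMIs in cluster 20 and 34 and 138 UMIs in the epithelial-like cells of Ctrl-D and Eed iKO-D. Its level in the epithelium was 0.341 CPM in Ctrl-D against 1.00 CPM in Eed iKO-D. The CpG-rich Sox2 stretch printed above lies upstream of the gene model used for counting, which starts at base 34650405.

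**Figure D4:**
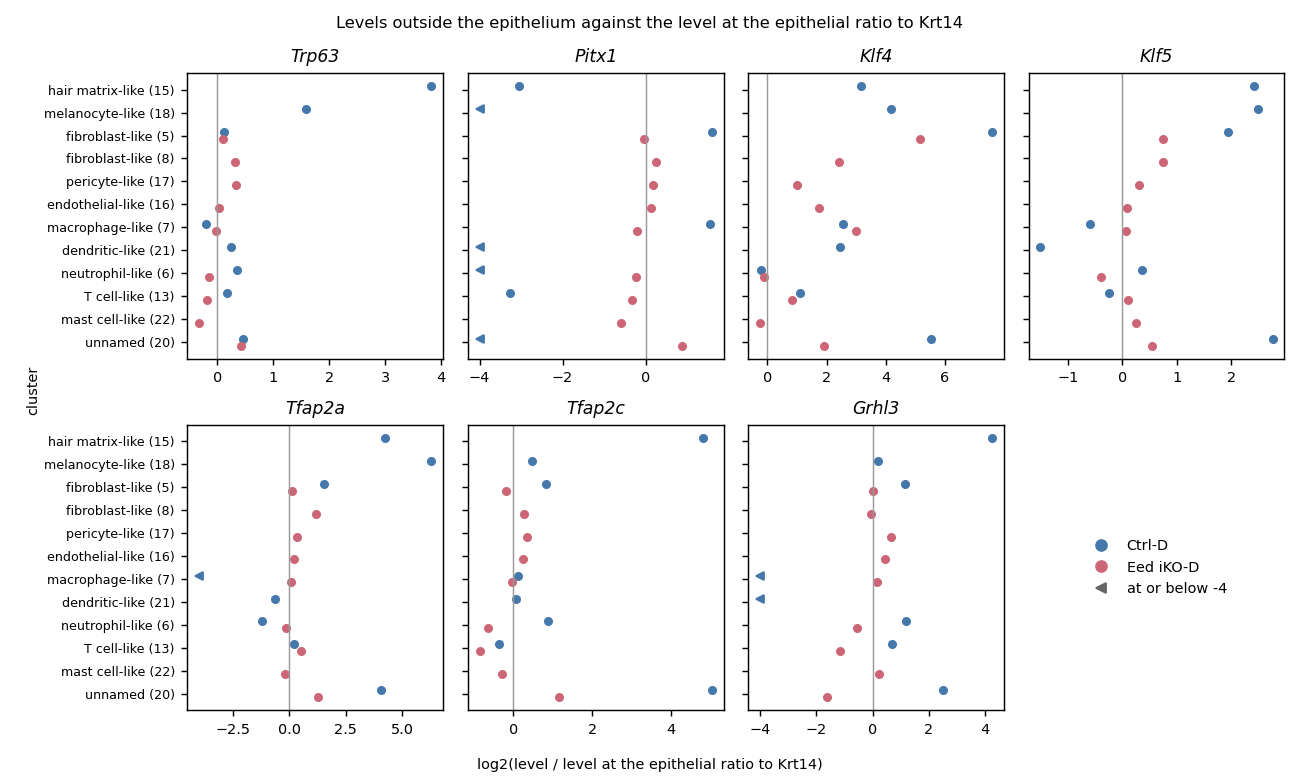
Level of 7 genes in clusters outside the epithelial-like class, as log2 of the level over the level at the epithelial ratio to Krt14. There is 1 point per cluster and library with at least 50 cells (blue Ctrl-D, red Eed iKO-D, triangles at or below -4). Klf4 in fibroblast-like cells, Tfap2a in melanocyte-like cells and Tfap2c in hair matrix-like cells lie far right of 0, while Trp63 in T cell-like cells lies close to it.

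Outside the epithelial-like clusters some genes stayed near the level at the Krt14 ratio and others were far above it in single cell types. Klf4 stood at 1532 CPM in the Ctrl-D and 997 CPM in the Eed iKO-D cells of a fibroblast-like cluster led by Clec3b, C3 and Prg4 (cluster 5), 194 and 35.5 times the level at the Krt14 ratio, and at 421 and 456 CPM in macrophage or monocyte-like cells. A second fibroblast-like cluster, led by Mmp13 and Crabp1, stood at 166 and 167 CPM, level between the libraries. Over both fibroblast-like clusters Klf4 was the only gene lower in Eed iKO-D, 1156 against 585 CPM (0.506, 0.487 to 0.527), where 23.0% of genes were lower. That ratio mixes the gap within cluster 5 with the larger number of Mmp13-led cells, 42 in Ctrl-D against 1075 in Eed iKO-D. Of the immediate-early genes in the fibroblast-like cells, Atf3 was lower too (803 against 418 CPM, 0.520), whereas Fos stood at 0.859, Egr1 at 1.10 and Jun at 1.30. The part of dissociation was not tested. Trp63, Pitx1, Klf5 and Grhl3 were higher in the fibroblast-like cells (27.9% of genes were). Pitx1 rested on 3 Ctrl-D UMIs and Grhl3 on 1, and the Grhl3 interval (0.713 to 162) includes equality. Trp63 in cluster 5, at 4.77 and 22.7 CPM, was 1.09 and 1.07 times the level at the Krt14 ratio. Pitx1 in the Eed iKO-D cells of that cluster was 0.968 times it.

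Tfap2a reached its highest level of any cluster in the melanocyte-like cells of Ctrl-D, 165 CPM (148 to 183), 78.0 times the level at the Krt14 ratio. Melanocytes come from the neural crest, where Tfap2a acts. Tfap2c stood at 2.70 CPM in the same cells, 1.38 times that level, and the paralogs thus parted there. Tfap2c was highest in hair matrix-like cells of Ctrl-D, 140.3 CPM (132 to 149), and these cells also held Trp63 at 234 CPM, Tfap2a at 101 and Grhl3 at 19.4 CPM, each over 10 times the level at the Krt14 ratio. Hair matrix and inner root sheath cells are themselves epithelial cells of the follicle, though they are not in the epithelial-like class here. Pitx1 had 2 UMIs in the 507 hair matrix-like cells. Melanocyte-like and hair matrix-like cells were nearly all of Ctrl-D, 248 against 7 and 507 against 9, so no comparison between libraries was made.

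The share of each gene's UMIs that lay in epithelial-like cells was read for the 7 genes other than Sox2. In Ctrl-D it ran from 88.0% for Tfap2c to 99.0% for Pitx1. The hair matrix-like cells, counted outside that class, held 1043 of the 9477 Tfap2c UMIs in kept Ctrl-D cells. In Eed iKO-D it ran from 55.1% for Klf4 to 81.7% for Pitx1 and Grhl3, with part of the remainder in the unnamed low-depth cells. For Sox2 it was 3.45% of 29 UMIs and 43.8% of 16 UMIs.

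Both libraries held cells with Xist and cells with Y-linked transcripts, so each held cells of both sexes. Cells with Xist UMIs only numbered 2675 in Ctrl-D against 1706 in Eed iKO-D, and cells with Y-linked UMIs only 1739 and 524. Trp63, Pitx1, Klf5, Tfap2a, Tfap2c and Grhl3 kept their direction in both kinds of cell. Trp63 stood at 1.47 and 1.81, Tfap2c at 0.797 and 0.700 and Grhl3 at 2.24 and 1.86. The Pitx1 ratio was 16.4 in cells with Xist (8.34 against 137 CPM) and 1.64 in cells with Y-linked UMIs (55.0 against 90.2 CPM). The Cck-high cells, the main Pitx1 cells of Ctrl-D, had 306 cells with Y-linked UMIs only and 21 with Xist only. Klf4 went opposite ways, 1.62 and 0.753, and within cluster 1 its ratio of 1.57 became 0.915 (0.856 to 0.979) in cells with Y-linked UMIs only. Sex, mouse and tumour cannot be told apart in these splits.

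Within a single library the 2 kinds of cell also stood apart. In cluster 1 of Ctrl-D, Klf4 stood at 279 CPM in cells with Xist and 587 CPM in cells with Y-linked UMIs. In the same cells Atf3 stood at 731 and 1307 CPM, Fos at 1182 and 1396 and Jun at 993 and 1110 CPM. In the Ctrl-D Krt15-high cluster Klf4 stood at 389.7 and 716 CPM and Grhl3 at 6.63 and 17.6 CPM, with Atf3 at 1123 and 1164 and Fos at 1537 and 1085 CPM. This cluster mixed states, since the finer clustering put 308 of its cells in the Lor-high fine cluster. Klf4 and Grhl3 stood at 978 and 35.7 CPM in the Ctrl-D cells of that fine cluster. In the Krt15-high fine cluster of Ctrl-D they stood at 447 and 5.41 CPM. The part of this mix in the gap was not tested. In the Lor-high cluster Klf4 stood at 1035 and 1530 CPM. The order was reversed in the Sprr2d-led cluster of Eed iKO-D, where Klf4 stood at 814 CPM with Xist and 542 CPM with Y-linked UMIs, and Grhl3 at 169.6 and 91.4 CPM. Pitx1 in the same library was higher with Xist as well, at 247 and 190.1 CPM in the Sprr2d-led and 126 and 73.8 CPM in the laminin-high cluster, while Trp63 in the latter stood at 445 and 621 CPM. The cells of 1 kind within a library are not known to come from more than 1 mouse.

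**Figure D5:**
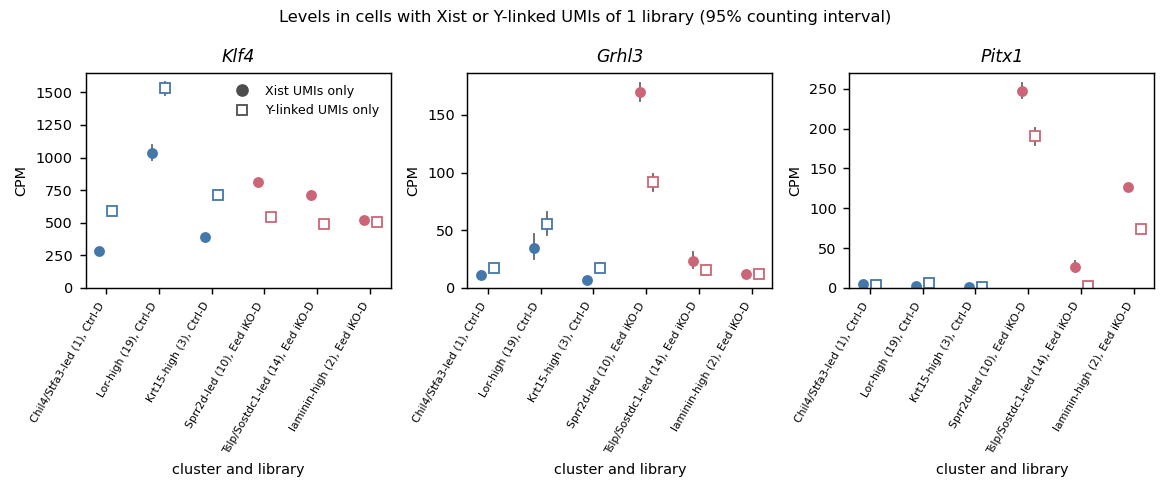
Levels of Klf4, Grhl3 and Pitx1 (CPM, linear axis from 0, lines for the 95% counting interval) in cells of 1 library and cluster with Xist UMIs only (filled circles) or Y-linked UMIs only (open squares), blue for Ctrl-D and red for Eed iKO-D. The Klf4 squares lie above the circles in the 3 Ctrl-D clusters and below them in the 3 Eed iKO-D clusters.

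Levels across the 35 pairs of cluster and library with at least 50 cells showed which genes had the most similar pattern, as Pearson's r of log2(CPM + 5) over 7495 candidate genes. These pairs share libraries, depth and free RNA, and the values are descriptions. Trp63 was most like Tns4 (0.96), Dsc3 (0.94) and Grhl2 (0.94), and Klf5 most like Fat2 (0.94), Fam83b (0.94) and Dsp (0.93). Desmocollin 3 and desmoplakin are desmosome proteins of keratinocytes. Grhl3 was most like Dsg1b (0.94), Evpl (0.92) and Cers3 (0.92), a suprabasal desmoglein, an envelope protein and a ceramide synthase of the barrier. Pitx1 was most like Gsto1 (0.82), Klf4 like Ggh (0.77), Tfap2a like Ddr1 (0.89), Tfap2c like Stard10 (0.89) and Hr (0.89), and Sox2 like Rspo3 (0.93). Among the 8 genes themselves the closest pair was Trp63 and Klf5, at 0.92, whereas Klf4 reached at most 0.38, with Klf5.

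Genes around these factors were read from 5 lists. The 2 largest and 2 smallest ratios of a list serve as its examples, and other genes named from a list were picked after their values were seen. Of 22 p63 targets, 13 were higher and 1 lower over all epithelial-like cells of Eed iKO-D, where 38.5% of all genes were higher and 16.9% lower. Their median log2 ratio was 0.72 against 0.33 over all genes. The integrin Itga3 stood at 44.5 and 196 CPM (4.40), while Trim29 stood at 274 and 217 CPM (0.794) and Fras1 at 12.7 and 7.31 CPM (0.576). The main keratins of the basal layer differed little, with Krt14 at 1.17 and Krt5 at 1.11. By cluster, 7 of the 22 were higher and 1 lower in cluster 1 (median 0.31 against 0.23 over all genes, with 30.4% of genes higher and 14.8% lower). The laminin-high cluster had 7 higher and 3 lower (0.32 against 0.42, 43.1% and 14.2%). The Krt15-high cluster had 12 and 2 (0.69 against 0.25, 32.3% and 17.3%). The Sprr2d-led cluster had 15 and 1 (0.93 against 0.78, 57.6% and 8.78%), and cluster 14 had 6 and 0 (0.25 against -0.05, 13.7% and 14.0%).

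Of 23 barrier genes known to depend on Klf4 or Grhl3, 5 were higher and 12 lower over the class, with a median of -0.86. Over all genes, 38.5% were higher and 16.9% lower there. Loricrin (Lor) stood at 406 and 18.9 CPM (0.0466) and filaggrin (Flg) at 139 and 20.1 CPM (0.144), while Cldn4, a tight junction protein, stood at 9.71 and 31.0 CPM (3.19) and the lipoxygenase Alox12 at 1.16 and 7.86 CPM (6.76). The list differed by state. In cluster 1, 13 of 21 measured barrier genes were higher and 1 lower, with a median of 0.91 against 0.23 over all genes (30.4% of genes higher). In the Krt15-high cluster 10 of 22 were higher and 6 lower (0.30 against 0.25, with 32.3% of genes higher and 17.3% lower). In cluster 14, 7 of 17 were higher and 3 lower (0.29 against -0.05, 13.7% and 14.0%). In the laminin-high cluster 6 of 21 were higher and 8 lower (-0.38 against 0.42, with 43.1% of genes higher and 14.2% lower). In the Sprr2d-led cluster 1 of 23 was higher and 16 lower (-1.50 against 0.78, with 8.78% of genes lower). Lor was lower in all 5 shared clusters, but its levels there were low. Over both libraries together they ran from 0.591 CPM in the laminin-high to 4.85 CPM in the Krt15-high cluster. T cell-like cells, which should lack Lor, stood at 5.90 CPM, and the part of free RNA was not tested.

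Of 14 genes linked to SOX2 or PITX1 in squamous tumours, 12 were higher and 1 lower, with a median of 1.73 against 0.33 over all genes (38.5% of genes higher). The simple-epithelium keratin Krt8 stood at 0.711 and 7.22 CPM (10.1), Sox11 at 0.801 and 7.53 CPM (9.40), while Nrp1 stood at 2.89 and 4.29 CPM (1.48) and Fgfbp1 at 269.6 and 149.7 CPM (0.555). In the laminin-high cluster, where the Pitx1 ratio was 52.6, 6 of 14 were higher and 1 lower, with a median of 0.35 against 0.42. Of all genes there, 43.1% were higher and 14.2% lower, so the 6 of 14 is near that share. In the Sprr2d-led cluster 11 of 14 were higher and 1 lower (2.20 against 0.78, with 57.6% of genes higher). Of 12 measured in each of the other shared clusters, 6 were higher and 1 lower in cluster 1 (0.56 against 0.23, with 30.4% of genes higher). The Krt15-high cluster had 8 and 1 (0.92 against 0.25, 32.3%) and cluster 14 had 5 and 0 (0.29 against -0.05, 13.7%). Of 41 other epidermal transcription factors, 15 were higher and 10 lower over the class, with a median of 0.07 against 0.33 over all genes. Of all genes, 38.5% were higher and 16.9% lower, so the 15 of 41 is near that share. Elf5 stood at 0.641 and 2.23 CPM (3.48), Bnc1, a basal zinc finger factor, stood at 25.1 and 75.6 CPM (3.01), the Grainyhead-like paralogs Grhl2 at 2.18 and Grhl1 at 1.62, Cebpd at 110.1 and 19.4 CPM (0.176), and the hair follicle factor Lhx2 at 17.9 and 0.690 CPM (0.0386). Tfap2b, a paralog of both AP-2 genes above, stood at 24.0 and 4.47 CPM (0.187). Of 12 factors of other lineages, listed as a check, 8 were measured, 2 higher and 2 lower beside the same shares of all genes. Twist1 stood at 3.4 and 19.2 CPM (5.66), Tbx21 at 0.190 and 0.254 CPM (1.34), Prrx1 at 17.6 and 6.49 CPM (0.369) and the endothelial factor Erg at 2.01 and 0.320 CPM (0.159). When cells with over 0.5% of UMIs from markers of another class were removed, the counts of the 8 genes stayed at 4 higher and 0 lower.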

How the data were processed

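Per the labels' protocols, tumours were digested to single cells, dead cells were removed with a kit, and version 2 of the 10x Genomics 3' chemistry was used. The authors' deposited matrices hold UMI counts as whole numbers, for reads mapped to mm10. The sources name different versions of Cell Ranger, which made these counts: the labels' protocols give 2.1.0, the file headers 7.1.0 and the submitters' processing notes 8.0. Of the gene IDs, 99.6% matched the GENCODE vM21 annotation.

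Cells with at least 500 genes and at most 15% mitochondrial UMIs were kept (scanpy 1.11.5, Python 3.11.15). Scrublet removed 129 of 7522 Ctrl-D cells and 0 of 21484 Eed iKO-D cells, so it did not work on the second library and doublets remain there. Both libraries were clustered together on 2000 variable genes without the 8 members, with 30 principal components, 15 neighbours, Leiden resolution 1.0 and no batch correction. Clusters were named from marker lists by a rule set after the data had been seen: a mean marker z of at least 1.5 for other types, and at least 7 of 14 epithelial markers at 3 times the median of those types for epithelial-like cells. Clusters with over 10% of UMIs from Gm42418 were never named epithelial-like. They took the name of another type only if at least 3 of their leading genes were its markers.

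UMIs were summed by library and cluster. Intervals are 95%, exact Poisson for CPM, conditional binomial for ratios and Clopper-Pearson for shares, and cover counting error only (scipy 1.17.1). The code was checked on simulated counts. A floor of 3 UMIs stands for 0. No test between groups was made, since each has 1 library, and no count model was fitted. All 8 members are described, with the 3 genes most like each one. Similarity was computed over genes with at least 500 UMIs and a level of at least 50 CPM in some pair of cluster and library. Alternatives covered cell filters, doublets, clustering, scaling, weighting and fold. The members and all lists were chosen with earlier results of these data known, and the splits by Xist and Y-linked UMIs and by finer clusters were chosen after seeing the data. 1 gene that the rule for examples would name is not reported here.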

Additional observations from a re-analysis of the deposited data

Results flagged for a closer look

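The Klf4 ratio of Eed iKO-D to Ctrl-D pointed opposite ways in the 2 kinds of epithelial-like cell. It was 1.62 (1.60 to 1.65) in cells with Xist UMIs only, from 353 to 574 CPM, and 0.753 (0.737 to 0.770) in cells with Y-linked UMIs only, from 700.4 to 528 CPM. The difference was not tested, since each library is 1 sample. The Ctrl-D cells with Y-linked UMIs include most of the Cck-high cells whose sex UMIs could be read (306 against 21), where Klf4 stood at 653 CPM. Inside cluster 1, the ratio for cells with Y-linked UMIs was 0.915 (0.856 to 0.979), and inside the Krt15-high cluster it was 2.12 (1.97 to 2.27) for cells with Xist.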

How the results depend on the processing

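The count of 4 members higher in epithelial-like cells became 2 with cells chosen by their own marker UMIs, with all deposited barcodes chosen that way, without mitochondrial, ribosomal protein and Gm42418 UMIs, with ratios divided by the median ratio of all genes, and at 2-fold. The count of 0 lower became 1 (Tfap2c) under both own-marker choices and under the median division. It stayed within 1.5 times under the other alternatives run. Within the shared clusters, the 19 higher became 8 under division by each cluster's median ratio and 7 at 2-fold, and the 1 lower became 4 and 0. Choosing cells by their own markers took in 15934 Eed iKO-D cells in place of 3111, many of low depth, and the cause of the smaller counts was not tested.

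Over 17 alternatives, ratios ran from 1.27 to 1.81 for Trp63 (at least 1.5 in 11), from 1.64 to 20.9 for Pitx1 (in 17), from 1.23 to 1.69 for Klf5 (in 12), from 1.38 to 2.59 for Grhl3 (in 16), from 0.753 to 1.62 for Klf4, from 0.941 to 1.34 for Tfap2a and from 0.610 to 0.846 for Tfap2c. Klf4 passed below 1 in 2 of them and Tfap2a in 1. No paired analysis was possible because each group has 1 library, and no replicate could be left out. The Pitx1 ratio in the Krt15-high cluster rests on 6 Eed iKO-D UMIs, and Sox2 was too rare in the epithelium for a ratio.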

Other observations

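The 12660 unnamed Eed iKO-D cells, with a median of 2371 UMIs, held all members but Sox2 at levels below those of the epithelial-like cells of that library. Most of them lay in clusters that met the epithelial marker rule but had over 10% of UMIs from Gm42418. Together the unnamed cells stood at 240.1 CPM for Trp63 (236 to 245), 57.6 for Pitx1 (55.4 to 59.8), 371 for Klf4, 271 for Klf5, 59.5 for Tfap2a, 32.2 for Tfap2c and 16.8 for Grhl3. In the largest of these clusters, of 9212 cells led by haemoglobin genes, Trp63 was 0.795 and Pitx1 0.716 times the level that the cells' Krt14 would bring at the epithelial ratio. In cluster 4, led by Saa3, Lama3 and Reg3g, Klf4 was above that level, at 465 CPM or 1.32 times it.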
